A study of Mus musculus with 69 samples.

Results

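The genes described here are 10 members of the Nodal signalling pathway in mouse embryonic stem cells (ESCs), namely Nodal, its inhibitors Lefty1 and Lefty2, the receptor genes Acvr1b and Acvr2b, the signal transducers Smad2 and Smad3, their DNA-binding partner Foxh1, and the feedback genes Smad7 and Skil. They were taken by name from the 16263 genes of the mRNA-seq count table, and all 10 were found and passed the filter on low counts, which 14061 genes passed. All cells were of the J1 line, ESCs derived from the inner cell mass of 129S4/SvJae blastocysts. WT cells were compared with the clones Mut18 and Mut43, in which CRISPR-Cas9 had changed lysine 27 of the histone variant H3.3 to arginine (H3.3K27R) in both alleles of both H3.3 genes, H3f3a and H3f3b, so that H3.3 could not be acetylated or methylated at this residue. Each line gave 2 mRNA-seq and 2 ATAC-seq libraries, so WT had 2 libraries and the mutants 4 in each assay. Each mutant line was a single clone, all lines were grown on feeder cells and then without them for the last passages, and the gene counts do not show the edit itself.

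Nodal is a secreted ligand of the TGF-beta family. It binds type I and type II activin receptors together with a co-receptor, the receptors phosphorylate Smad2 and Smad3, and these enter the nucleus with Smad4 and bind DNA with Foxh1. Lefty proteins bind Nodal or its co-receptor and block signalling, and since the Lefty genes, Smad7 and Skil are themselves induced by the pathway, they are often read as negative feedback. In mouse ESCs the pathway is active in culture, and in the embryo it patterns the epiblast and sets left and right.

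The 6 mRNA-seq libraries held 14992756 to 15143998 counts each, and levels are given as CPM, the usual unit of counts scaled to library size, here with edgeR's TMM factors. Coordinates are those of mm10 (GRCm38). Over all tested genes the median log2 fold change was -0.0041. Of all tested genes, 23.5% were higher in the mutants and 24.5% were lower. Of 7 ESC markers, 6 were higher in the mutants and Pou5f1 was lower. Of 9 fibroblast markers, which feeder cells would bring in, 8 were tested, 6 were lower in the mutants and none was higher. Their summed level was 276 CPM in WT replicate 1 and 192 CPM in WT replicate 2, against 129 to 170 CPM in the 4 mutant libraries. The remaining fibroblast marker, Lum, was under the filter and at 0 counts in 3 of the 6 libraries. Dcn, 1 of the 6 lower fibroblast markers, had 40 and 16 counts in WT and 8, 7, 11 and 4 in the mutants. It passed the filter only through the WT libraries. Of the primed epiblast markers, 3 of 4 were lower, and of the tested mesendoderm markers 4 of 5 were lower. Foxa2, 1 of the 4 lower mesendoderm markers, passed the filter only through the WT libraries. Of the 5 tested primitive endoderm markers, 1 was higher and 1 lower. The part of these changes in the results below was not tested.

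Lefty2 was the member that differed most between the genotypes, at 2.97 times its WT level, while its neighbour and paralog Lefty1 rose by 17.2%. Nodal itself did not pass the test. Smad2 was higher, Smad3, Smad7 and Skil were lower, and Acvr1b, Acvr2b and Foxh1 did not pass. By edgeR's quasi-likelihood test, with p-values adjusted over the 14061 tested genes by the Benjamini-Hochberg method, 3 of the 10 members were higher in the mutants and 3 were lower at an adjusted p under 0.05, where 23.5% of all tested genes were higher and 24.5% lower. Beyond a 2-fold change there was 1 member, Lefty2, where 3.28% of tested genes were that much higher and 5.65% that much lower. In 3 members all 4 mutant libraries lay above both WT libraries, which held for 29.4% of tested genes, and in 6 members they lay below, which held for 30.4%. The shares of members called are thus near those of all genes, and the median log2 fold change of the 10 was -0.13. These are bulk samples, in which fewer cells of a type and less RNA per cell cannot be told apart.

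**Figure D1:**
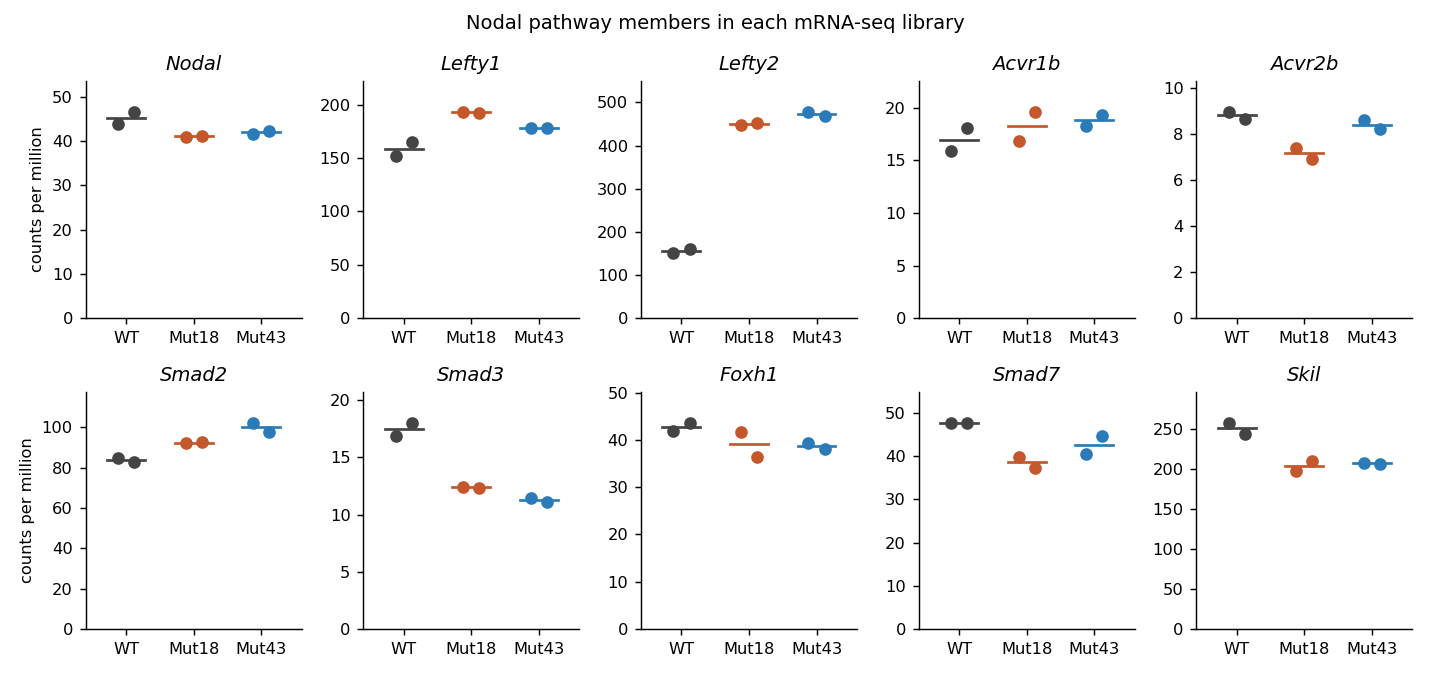
Level of each of the 10 members in CPM (vertical axes, each from 0) in the 2 libraries of WT, Mut18 and Mut43 (points), with the mean of each line (horizontal lines). Lefty2 sits at 152 and 159.8 CPM in WT and between 448 and 478 CPM in the mutants, while the other members shift by far less.

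Lefty2 (ENSMUSG00000066652.5, chr1:180893108-180899103, plus strand) had 152 CPM in WT replicate 1 and 159.8 CPM in WT replicate 2. It had 448 and 453 CPM in Mut18 and 478 and 469 CPM in Mut43. All mutant libraries were far above both WT libraries, with no overlap, and the lines' own replicates lay within a few percent of each other. The log2 fold change was 1.57 (95% confidence interval 1.48 to 1.66, edgeR adjusted p = 5.15e-16), a fold of 2.97. Against the same 2 WT libraries, the log2 fold change of Lefty2 was 1.53 in Mut18 and 1.60 in Mut43.

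Lefty1 (ENSMUSG00000038793.8, chr1:180935022-180938400, plus strand) codes for the other Lefty protein of the mouse and lies 41.9 kb downstream of Lefty2. It had 152 and 165 CPM in WT, 193 and 193 CPM in Mut18, and 179 and 178 CPM in Mut43. The mutant libraries were again all above WT, and those of Mut43 lay below those of Mut18. The log2 fold change of Lefty1 was 0.23 (0.13 to 0.33, edgeR adjusted p = 0.000538), with 0.29 in Mut18 and 0.17 in Mut43.

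Per kilobase of exon, the order of the Lefty genes turned. Lefty2 stood at 0.674 and 0.653 times Lefty1 in the WT libraries, at 1.56 and 1.58 times in Mut18 and at 1.80 and 1.78 times in Mut43. The summed level of both genes per kilobase was 6.88 and 6.97 times that of Nodal in WT and 13.9 to 14.4 times in the mutants, so the libraries of each genotype lay close together and apart from the other. The paralogs are alike in sequence, which limits how well reads can be assigned. Of the 1571 stretches of 50 bases in the Lefty1 transcript, 281 (17.9%) also occur in the Lefty2 transcript, 73 stretches of 100 bases do, and no stretch of 150 bases does. How reads that match both were counted is not given in the sources used here, so both values carry this uncertainty. No gene of the annotation shared exon bases with any of the 10 members.

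**Figure D2:**
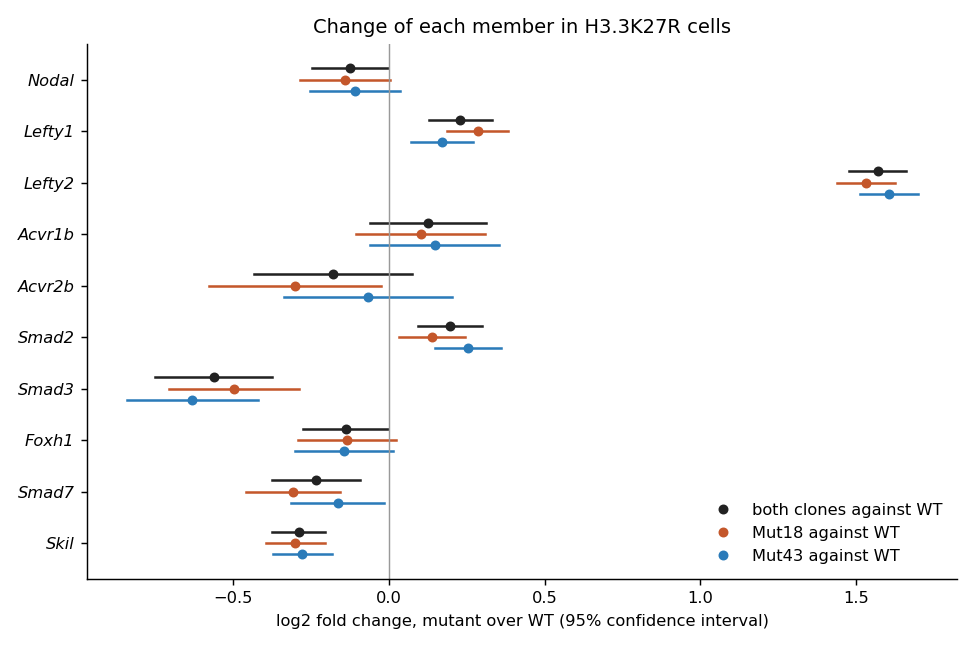
Log2 fold change of each member against WT (horizontal axis) for both clones together (black), Mut18 (orange) and Mut43 (blue), with 95% confidence intervals as lines. The clones share the 2 WT libraries, and Lefty2, at 1.53 and 1.60, stands apart from the other 9 members, which lie between -0.63 and 0.29.

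ATAC-seq, which marks accessible DNA by the insertions of a transposase, gave a peak list for each library, with the enrichment at each peak over its local background. Peaks of any library that overlapped were joined into 89596 regions, and fold enrichment was divided by the library's median over the 48984 regions with a peak in all 6 libraries (scaled fold enrichment, so that 1 is a typical shared region). The lists carry no read numbers, so their depth is unknown, and an absent peak says only that the authors' threshold was not met. WT replicate 1 stood apart, with 78536 peaks over 33392097 bp against 63588 to 69811 peaks over 22634778 to 25603392 bp in the other libraries. Within 20 kb of the members lay 70 regions. Of these, 39 had a peak in all 6 libraries (54.7% of all regions did), 3 were called in each WT library but not in any mutant one (3.25% of all regions), and none was called in each of the 4 mutant libraries but not in WT (0.733%).

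The regions around the Lefty genes are shown by sequence where they hold more than 1 match to a motif of the pathway. AATNNACA, a loose pattern for Foxh1 sites in which N is any base, was searched on both strands in the 300 bases around each region's summit. Not every match to this loose pattern need be a Foxh1 motif. Its form AATCCACA, which is a subset of it, and the Smad palindrome GTCTAGAC were searched in the same way. AATNNACA was found in 10.2% of all 89596 regions, AATCCACA in 0.842% and the palindrome in 0.247%. Among the 70 regions near the members, 10 (14.3%) held AATNNACA and none held the palindrome. The 10 included 3 of the 7 regions near Lefty1 and 1 of the 7 near Lefty2. Only 2 of the 70 held more than 1 match, which 0.864% of all regions did, and these 2 lay upstream of Lefty2 and of Lefty1. Each had 2 copies of AATCCACA, and 2 or more copies were found in 7 of all 89596 regions. Since AATCCACA is the very form that both windows hold, this count describes them and is no test. The first lies 4252 bp upstream of the Lefty2 start (chr1:180888345-180889485) and is shown at chr1:180888706-180889005. The second lies 10116 bp upstream of the Lefty1 start (chr1:180924587-180925521) and is shown at chr1:180924756-180925055. Both are written on the plus strand of GRCm38, 5′ to 3′, with the motif matches on either strand in capitals.
Lefty2 upstream: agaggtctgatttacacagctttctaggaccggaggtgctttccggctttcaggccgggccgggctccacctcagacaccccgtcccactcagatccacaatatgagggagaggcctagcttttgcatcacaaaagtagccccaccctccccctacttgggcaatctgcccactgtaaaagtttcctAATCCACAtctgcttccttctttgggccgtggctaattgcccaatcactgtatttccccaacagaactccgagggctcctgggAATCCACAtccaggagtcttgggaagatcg
Lefty1 upstream: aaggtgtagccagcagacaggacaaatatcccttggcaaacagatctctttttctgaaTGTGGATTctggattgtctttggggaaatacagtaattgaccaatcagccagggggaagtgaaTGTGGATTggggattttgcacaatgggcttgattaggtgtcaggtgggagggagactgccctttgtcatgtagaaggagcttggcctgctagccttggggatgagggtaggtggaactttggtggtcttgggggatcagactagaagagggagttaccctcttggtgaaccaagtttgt
The match starts are 83 bases apart upstream of Lefty2 and 63 bases apart upstream of Lefty1, on the plus strand in the former and on the minus strand in the latter, and the longest stretch shared when 1 window is reversed is 15 bases. A motif match is a description of the letters and not a binding site.

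These 2 regions had a peak in every library. In the region upstream of Lefty2 the WT libraries had scaled fold enrichments of 0.656 and 0.677, those of Mut18 0.666 and 0.655, and those of Mut43 0.719 and 0.692. In the region upstream of Lefty1 the WT libraries had 0.816 and 0.904, those of Mut18 0.900 and 0.851, and those of Mut43 0.895 and 0.885. WT and mutant libraries overlapped in both regions, and the ratio of the group means was 1.03 in each. Around Lefty2, none of the 5 regions with a peak in all libraries separated the genotypes. The region inside Lefty2, 1371 bp from its start (chr1:180894175-180894833, over an exon), had 0.636 and 0.641 in WT against 0.695, 0.598, 0.707 and 0.724 in the mutants, an overlap with a ratio of 1.07. A region with a peak in both Mut18 libraries alone, at 0.587 and 0.576, lay 15375 bp upstream (chr1:180877627-180877851). The highest region near Lefty2, 18836 bp upstream (chr1:180873959-180874394), had 0.957 and 1.04 in WT and 0.836 to 0.995 in the mutants.

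Lefty1 had more varied surroundings. A region 15135 bp upstream (chr1:180919600-180919986, intergenic) had 0.579 and 0.498 in WT and 0.591, 0.693, 0.697 and 0.684 in the mutants, all above WT, at a ratio of 1.24. A region over an exon and an annotated start of Tmem63a, 10831 bp downstream of the Lefty1 start (chr1:180945421-180945959), had 0.592 and 0.667 in WT and 0.723 to 0.781 in the mutants. Near the Lefty1 start (chr1:180934586-180934919), the libraries with a peak were those of WT and Mut43 replicate 1, at 0.443, 0.393 and 0.430. The WT-only regions lay over an exon of Lefty1 (chr1:180936787-180936998), at 0.444 and 0.477, and at the Tmem63a start (chr1:180942451-180942786), at 0.420 and 0.465. All of these weak regions were under the level of a typical shared region, close to where a peak may or may not pass the threshold.

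**Figure D3:**
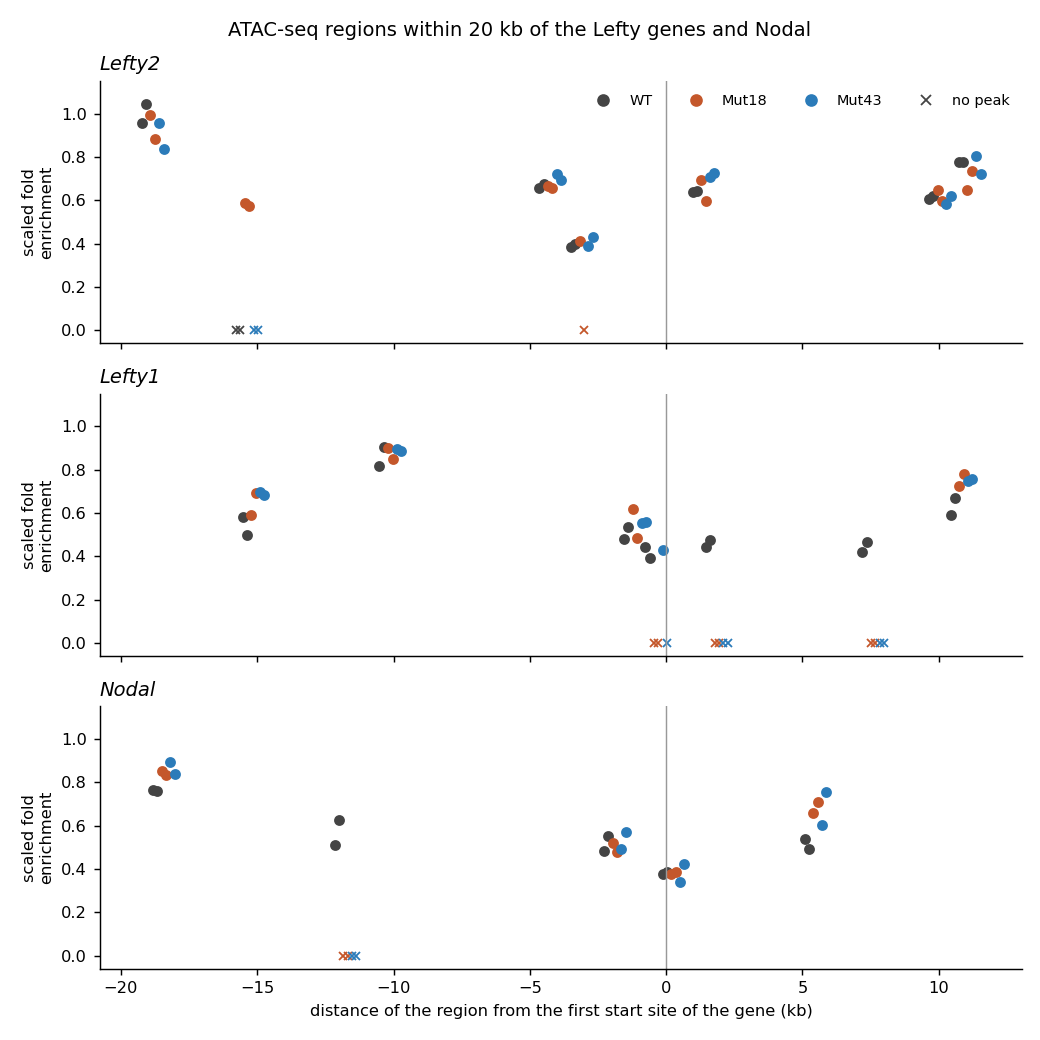
Scaled fold enrichment (vertical axis, 1 being the median of regions shared by all 6 libraries) of ATAC-seq regions around Lefty2, Lefty1 and Nodal against the distance of the region from the first start site of the gene in kb (horizontal axis, points offset sideways by library). Points are libraries of WT (black), Mut18 (orange) and Mut43 (blue), and crosses at 0 are libraries with no peak. No Lefty2 region separates the genotypes, while the regions 11.8 kb upstream of Nodal and 1.9 kb and 7.6 kb downstream of the Lefty1 start have peaks in the WT libraries alone.

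H3f3a, which carries the edit, lies 79.2 kb from the Lefty2 start on the same chromosome (chr1:180800832-180813943, minus strand), so an effect of the edited locus on nearby genes and an effect of the H3.3 change cannot be told apart. Within 500 kb of the Lefty2 start the table lists 14 further genes, of which 12 were tested. Of these, 5 were higher in the mutants and 1 was lower, beside the 23.5% and 24.5% of all tested genes. Ephx1, which codes for a microsomal epoxide hydrolase and starts 103 kb away, had the largest of these changes at 0.81 (0.58 to 1.05, edgeR adjusted p = 5.18e-06). Parp1, a DNA repair enzyme, was higher at 0.32, Tmem63a at 0.26, Sde2 at 0.12 and Nvl at 0.12. H3f3a was the gene that was lower, at -0.23 (-0.32 to -0.14, edgeR adjusted p = 0.00016). Acbd3, Lin9, Mixl1, Cnih4 and Wdr26 lay between -0.21 and 0.02 and did not pass, and 6330403A02Rik and Cnih3 were under the filter. None of the 12 tested genes changed beyond 2-fold. Without Mut18 replicate 2, 3 of the 12 were higher, beside 3173 of all 14009 genes tested in that setting. The count was also 3 without Mut43 replicate 1, beside 3111 of all 14003, and without Mut43 replicate 2, beside 3043 of all 13986. Without WT replicate 1, Sde2 and Nvl had edgeR adjusted p of 0.401 and 0.0634.

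**Figure D4:**
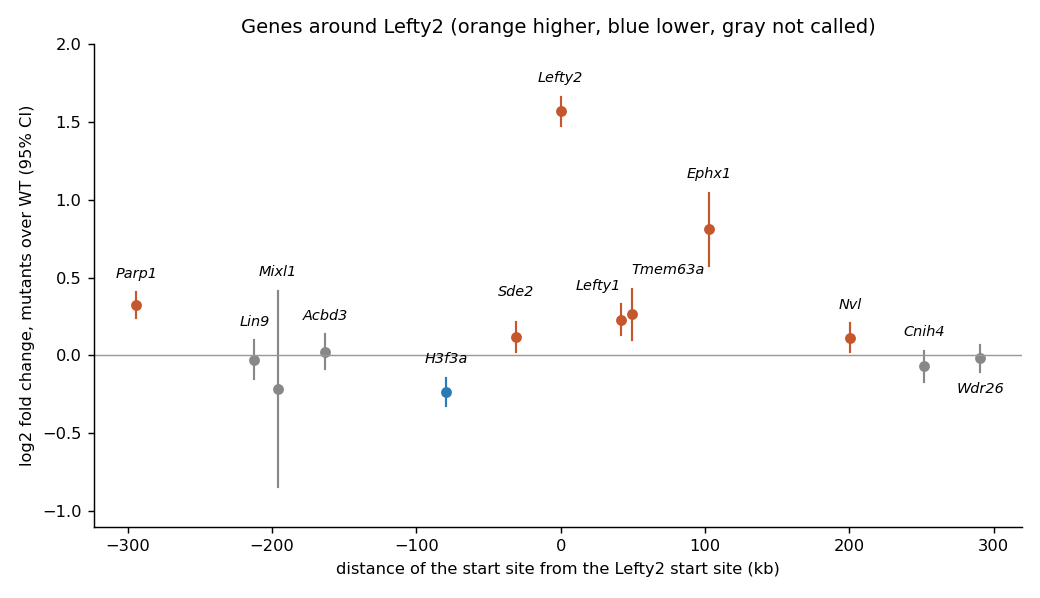
Log2 fold change of the mutants over WT (vertical axis, lines are 95% confidence intervals) for 13 tested genes with a start site within 500 kb of that of Lefty2, against the distance between start sites in kb (horizontal axis). Orange genes were higher, blue lower and gray not called at an adjusted p of 0.05, and Lefty2 at 1.57 and Ephx1 at 0.81 stand above Lefty1 at 0.23.

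Nodal (ENSMUSG00000037171.6, chr10:61417972-61425338, plus strand) had 44.0 and 46.6 CPM in WT, 41.0 and 41.2 CPM in Mut18, and 41.7 and 42.3 CPM in Mut43. The mutant libraries were all a little below WT without overlap, but the difference did not pass the test. The log2 fold change of Nodal was -0.12 (-0.25 to -0.0013, edgeR adjusted p = 0.0893).

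Nodal had 5 regions within 20 kb, 4 of them with a peak in every library. At its start (chr10:61417850-61418428) the scaled fold enrichment was 0.378 and 0.387 in WT and 0.338 to 0.424 in the mutants, and 1881 bp upstream (chr10:61415701-61416595) it was 0.482 and 0.550 in WT and 0.478 to 0.572 in the mutants, so the genotypes overlapped in both. A region over an exon 5479 bp into the gene (chr10:61423344-61423689) had 0.539 and 0.490 in WT and 0.659, 0.710, 0.601 and 0.753 in the mutants, at a ratio of 1.32, and a region 18425 bp upstream (chr10:61399387-61399735) was also higher in all mutant libraries, at a ratio of 1.12. The region 11764 bp upstream (chr10:61406038-61406419, intergenic) was called in WT alone, with fold enrichments of 4.05 and 5.32 as deposited. It is the intergenic one of the 3 regions with peaks in WT alone, which is why it is shown. Its bases at chr10:61406058-61406357 are written on the plus strand of GRCm38, 5′ to 3′, and hold none of these motifs.
Nodal upstream: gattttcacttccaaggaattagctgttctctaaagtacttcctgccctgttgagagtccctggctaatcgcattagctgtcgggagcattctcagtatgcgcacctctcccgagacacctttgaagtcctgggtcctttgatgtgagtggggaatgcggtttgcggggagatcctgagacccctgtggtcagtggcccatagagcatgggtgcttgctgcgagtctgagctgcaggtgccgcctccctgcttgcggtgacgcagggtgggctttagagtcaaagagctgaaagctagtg

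The receptor genes were low and did not pass the test. Acvr1b, the type I receptor of Nodal and activin (ENSMUSG00000000532.11, chr15:101174067-101213684), had 15.9 and 18.1 CPM in WT, 16.9 and 19.6 CPM in Mut18, and 18.3 and 19.3 CPM in Mut43, so the groups overlapped. Its log2 fold change was 0.13 (-0.06 to 0.31, edgeR adjusted p = 0.258). Acvr2b, a type II receptor (ENSMUSG00000061393.14, chr9:119402118-119434995), had 8.95 and 8.66 CPM in WT, 7.38 and 6.92 CPM in Mut18, and 8.58 and 8.22 CPM in Mut43. All mutant libraries lay below WT, those of Mut43 only just, and with -0.18 (-0.43 to 0.07, edgeR adjusted p = 0.237) the difference did not pass. The regions at both starts had a peak in all libraries and overlapped between genotypes, with ratios of 0.990 for Acvr1b and 1.03 for Acvr2b.

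The signal transducers moved in opposite directions. Smad2 (ENSMUSG00000024563.16, chr18:76241580-76310963) had 85.0 and 82.9 CPM in WT, 92.2 and 92.6 CPM in Mut18, and 102 and 97.8 CPM in Mut43, all mutant libraries above WT. Its log2 fold change was 0.20 (0.09 to 0.30, edgeR adjusted p = 0.00254). Smad3 (ENSMUSG00000032402.12, chr9:63646767-63757994, minus strand) had 16.9 and 18.0 CPM in WT, 12.4 and 12.4 CPM in Mut18, and 11.4 and 11.1 CPM in Mut43. No mutant library came near WT, and the log2 fold change of -0.56 (-0.75 to -0.37, edgeR adjusted p = 3.0e-05) was the largest fall among the members, a percent difference of -32.2. Per kilobase of exon, Smad2 stood at 3.18 and 2.90 times Smad3 in WT and at 4.70 to 5.66 times in the mutants, again without overlap.

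In the ATAC-seq lists, the region at the Smad2 start was higher in all mutant libraries, with 0.943 and 1.11 in WT and 1.14 to 1.37 in the mutants, at a ratio of 1.23. The region at the Smad3 start (chr9:63757973-63758476) had 0.718 and 0.743 in WT and 0.663, 0.561, 0.728 and 0.657 in the mutants. Mut43 replicate 1 fell between the WT values there, so the genotypes overlapped, at a ratio of 0.893 (two-sided exact permutation p = 0.267).

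The RefSeq promoter table for GRCm38.p6 gave the promoters of 4 of the 10 members used here, Smad3, Acvr2b, Nodal and Acvr1b. Lefty1, Lefty2, Foxh1 and Skil had no match. The chromosome that holds Smad2 and Smad7 was left out of this match, so nothing is said of their promoters. The promoter of Smad3, the member that fell most, is shown. It spans chr9:63757945-63758244 and is written on the minus strand, 5′ to 3′, from 250 bases before the start to 50 bases after it. None of the 4 promoters held AATNNACA, which 12.2% of the 32851 RefSeq promoters of this length held, or the palindrome, which 0.213% held. Of the bases of the Smad3 promoter, 67.7% are G or C.
Smad3 promoter: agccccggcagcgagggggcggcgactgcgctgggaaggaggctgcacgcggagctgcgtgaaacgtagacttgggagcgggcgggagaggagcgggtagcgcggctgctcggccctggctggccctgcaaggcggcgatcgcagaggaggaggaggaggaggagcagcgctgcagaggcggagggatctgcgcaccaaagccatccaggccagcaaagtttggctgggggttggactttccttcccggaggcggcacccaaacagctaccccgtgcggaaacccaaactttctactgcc

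Foxh1 (ENSMUSG00000033837.5, chr15:76668225-76669948, minus strand), the forkhead factor that brings Smad2 and Smad3 to DNA, had 42.0 and 43.7 CPM in WT, 41.7 and 36.5 CPM in Mut18, and 39.5 and 38.1 CPM in Mut43. The mutant libraries were below WT, Mut18 replicate 1 by very little, and the log2 fold change of -0.14 (-0.27 to -0.0019, edgeR adjusted p = 0.0883) did not pass. Without Mut18 replicate 1 it was -0.17 with an edgeR adjusted p of 0.0405. At the Foxh1 start (chr15:76669695-76669926) the scaled fold enrichment overlapped between genotypes. Within 20 kb of this short gene lie also Kifc2, Cyhr1 and Ppp1r16a. The regions at the starts of Cyhr1 and Kifc2 (chr15:76659662-76660382) and of Ppp1r16a (chr15:76671430-76671837) were higher in all mutant libraries, at ratios of 1.12 and 1.18. A region in an intron of Ppp1r16a (chr15:76683380-76684356) had 0.935 and 0.935 in WT and 0.785 to 0.892 in the mutants, the 1 member region that was lower in all mutant libraries.

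The feedback genes other than the Lefty genes went down. Smad7, an inhibitory Smad that blocks the receptors (ENSMUSG00000025880.11, chr18:75367529-75395935), had 47.7 and 47.8 CPM in WT, 39.9 and 37.3 CPM in Mut18, and 40.5 and 44.7 CPM in Mut43. All mutant libraries were below WT, Mut43 replicate 2 least so. The log2 fold change of Smad7 was -0.23 (-0.37 to -0.09, edgeR adjusted p = 0.00699), with -0.31 in Mut18 (edgeR adjusted p = 0.00141) and -0.16 in Mut43 (edgeR adjusted p = 0.0673).

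The ATAC-seq region at the Smad7 start had 0.547 and 0.550 in WT and 0.709, 0.693, 0.695 and 0.687 in the mutants, at a ratio of 1.27 (two-sided exact permutation p = 0.0667). All 4 mutant libraries thus lay above WT in this region, while the RNA level of Smad7 lay below.

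Skil, which codes for the Smad co-repressor SnoN (ENSMUSG00000027660.16, chr3:31095058-31122577), had 258 and 244 CPM in WT, 198 and 210.0 CPM in Mut18, and 208 and 206 CPM in Mut43. All 4 mutant libraries were well below both WT libraries. The log2 fold change of Skil was -0.29 (-0.37 to -0.20, edgeR adjusted p = 6.72e-06), with -0.30 in Mut18 and -0.28 in Mut43.

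The region 5510 bp upstream of the Skil start (chr3:31089340-31089615, intergenic) had 0.380 and 0.474 in WT and 0.592, 0.510, 0.483 and 0.633 in the mutants, all above WT, though Mut43 replicate 1 only just, at a ratio of 1.30 (two-sided exact permutation p = 0.133). It is shown as 1 of the regions that separated the genotypes and hold a match to AATNNACA, in capitals. Others that do so lie near Lefty1, Smad2 and Foxh1 and are not shown by sequence. The Skil region is written 5′ to 3′ at chr3:31089398-31089697 on the plus strand of GRCm38.
Skil upstream: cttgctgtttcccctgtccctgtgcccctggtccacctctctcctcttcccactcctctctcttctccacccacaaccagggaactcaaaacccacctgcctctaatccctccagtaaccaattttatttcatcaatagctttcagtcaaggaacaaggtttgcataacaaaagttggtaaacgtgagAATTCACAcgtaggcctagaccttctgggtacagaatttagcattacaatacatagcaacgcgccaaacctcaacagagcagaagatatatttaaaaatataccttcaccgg
The region at the Skil start (chr3:31094466-31095205) had 0.604 and 0.584 in WT, 0.575 in Mut18 replicate 1, no peak in Mut18 replicate 2, and 0.603 and 0.655 in Mut43, and the region in an intron (chr3:31095502-31095884) overlapped between genotypes.

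Over the 39 regions with a peak in all 6 libraries, 11 were higher in all mutant libraries than in both WT libraries, where 14.3% of such regions were over the whole genome, and 1 was lower, where 9.96% were. The other regions that were higher were 2 near Acvr1b (chr15:101198215-101198664 and chr15:101221576-101222077), at ratios of 1.12 and 1.18. The 12 ratios lay between 0.876 and 1.32. With 2 against 4 libraries the exact permutation test cannot reach 0.05, its smallest p being 0.0667. Without WT replicate 2, 20 of 41 such regions near the members were higher, beside 27.2% over the whole genome, and 10 of 70 regions had peaks in WT alone, beside 9761 of all 88522. Without WT replicate 1, 12 of 40 were higher and 5 were lower, beside 25.6% and 22.1% over the whole genome.

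Between the clones no member passed the test. By edgeR's quasi-likelihood test none of the 10 differed between Mut18 and Mut43, where 0.327% of tested genes did, with adjusted p from 0.469 to 0.986. At an unadjusted p under 0.05 there were 2, Lefty1 and Smad2, and by DESeq2 there were 0 by either p. Lefty1 was lower in Mut43 than in Mut18 by 0.11 on the log2 scale (95% confidence interval -0.21 to -0.02), and Smad2 was higher by 0.12 (0.01 to 0.22). Against the shared WT libraries, 3 members were higher and 3 lower in Mut18, where 20.3% and 21.0% of tested genes were, and 3 were higher and 2 lower in Mut43, where 22.9% and 23.9% were. The member that passed in Mut18 and not in Mut43 was Smad7, and the difference between the clones for it, 0.14 (-0.01 to 0.30), did not pass.

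Levels can be compared between genes only per length, here as CPM per kilobase of all annotated exons of the gene. In WT the means over 2 libraries were 90.0 for Lefty1, 59.7 for Lefty2, 31.4 for Foxh1, 25.9 for Skil, 21.6 for Nodal, 10.6 for Smad7, 9.56 for Smad2, 3.85 for Acvr1b, 3.15 for Smad3 and 2.24 for Acvr2b. No neighbours in this order overlapped in the WT libraries. In the mutants Lefty2 came first at 177 ± 5.42 (SD, n = 4), before Lefty1 at 106 ± 4.84, and the order of the others was the same except that Smad2, at 10.96 ± 0.55, stood above Smad7, at 8.98 ± 0.68. In the mutants the libraries of Smad3 and Acvr2b overlapped. Exon length counts every annotated isoform, so a gene with a long and rarely used exon reads too low on this scale.

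Of 39 further genes of the Nodal, activin and TGF-beta pathways, 37 were in the table and 34 passed the filter. In the mutants 7 of these were higher and 16 lower, which is 20.6% and 47.1%, beside 23.5% and 24.5% of all tested genes. Their median log2 fold change was -0.13. The 16 lower genes include Foxa2, which passed the filter on low counts only through the WT libraries. Its place among the 16 thus follows in part from the filter. Without WT replicate 1, the library with the most fibroblast RNA, 4 were higher and 11 lower, beside 18.0% and 18.3% of all tested genes. All 4 tested receptor genes, Acvr2a, Tgfbr1, Tgfbr2 and Tgfbr3, were lower. Without WT replicate 1 the log2 fold changes of all 4 were still negative, but only Acvr2a passed the test. Tgfbr1 went from -0.29 (edgeR adjusted p = 0.0017) to -0.17 (edgeR adjusted p = 0.0849), and Tgfbr2 from -0.57 (edgeR adjusted p = 0.0132) to -0.42 (edgeR adjusted p = 0.150). Without WT replicate 2 the log2 fold changes were -0.45 for Acvr2a, -0.38 for Tgfbr1, -0.69 for Tgfbr2 and -2.16 for Tgfbr3. Acvr1c then passed the filter as well, but only through its 45 counts in WT replicate 1. Its direction was thus fixed by the filter.

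Of the 6 tested ligands and co-receptors, 3 were higher and 3 lower, beside 23.5% and 24.5% of all tested genes. These counts were 2 and 2 without WT replicate 1, and without WT replicate 2 they were 2 and 1. Tdgf1, the co-receptor of Nodal also known as Cripto, had 880.5 and 883 CPM in WT and 903 to 966 CPM in the mutants. Its log2 fold change was 0.10 (0.02 to 0.17, edgeR adjusted p = 0.0373), the smallest that passed here, and its edgeR adjusted p was 0.128 without WT replicate 1 and 0.0917 without WT replicate 2. Gdf3, a ligand related to Nodal, was lower at -0.13 (-0.21 to -0.04, edgeR adjusted p = 0.0153), but without WT replicate 2 the value was -0.10 and did not pass (edgeR adjusted p = 0.180). Inhba, which codes for the subunit of activin A, had 6.81 and 6.51 CPM in WT and 2.37 to 4.11 CPM in the mutants, a log2 fold change of -0.92 (-1.29 to -0.54, edgeR adjusted p = 0.000263). Inhbb, which codes for the subunit of activin B, moved the other way, at 0.45, as did Tgfb1 at 0.51. Tgfb2 was lower at -0.33, with edgeR adjusted p of 0.0469, but of 0.171 without WT replicate 1 and 0.0549 without WT replicate 2, and with values in Mut43 of 13.0 and 11.9 CPM that lay under those of Mut18, 18.6 and 18.5 CPM. Cfc1, another co-receptor, was under the filter, and Gdf1 was not analysed here.

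Acvr2a, the other type II receptor for Nodal and activin, had 25.1 and 22.8 CPM in WT and 17.5 to 19.3 CPM in the mutants. Its log2 fold change was -0.39 (-0.55 to -0.22, edgeR adjusted p = 0.000399), and -0.31 without WT replicate 1. Tgfbr3, the co-receptor betaglycan, had 5.45 CPM in WT replicate 1 but 2.08 CPM in WT replicate 2 and 0.731 to 1.69 CPM in the mutants. Its log2 fold change of -1.63 thus rested in part on WT replicate 1, and was -0.78 without it (edgeR adjusted p = 0.0994). The fibroblast markers stood highest in the same library, and their part in the receptors' values was not tested. The proteases Furin, at -0.13 (edgeR adjusted p = 0.183), and Pcsk6, which process the Nodal precursor, did not pass.

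Of the 10 Smad partners and regulators, 3 were higher and 2 lower, none beyond 1.5-fold, beside 23.5% and 24.5% of all tested genes. They numbered 2 and 1 without WT replicate 1, and without WT replicate 2 they were 3 and 1. Smad4, the common partner of Smad2 and Smad3, had 74.9 and 73.1 CPM in WT and 62.6 to 67.3 CPM in the mutants, all below WT. Its log2 fold change was -0.19 (-0.29 to -0.09, edgeR adjusted p = 0.00305). Smurf2 and Ppm1a, a ubiquitin ligase and a phosphatase that act on Smads, were higher at 0.26 and 0.16. Of the inhibitors, Fst, which codes for the activin-binding protein follistatin, had 17.0 and 15.4 CPM in WT and 4.85 to 6.25 CPM in the mutants. Fst fell beyond 2-fold, at -1.60 (-1.84 to -1.36, edgeR adjusted p = 6.79e-10), and the value was -1.52 without WT replicate 1. Bambi, a decoy receptor, was lower at -0.43, but without WT replicate 2 the value was -0.29 and did not pass (edgeR adjusted p = 0.156). Cer1 was not analysed here.

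Of the 7 tested targets of the pathway, 5 were lower and none was higher, with or without either WT library. Of all tested genes 24.5% were lower, and 18.3% and 20.5% were without WT replicate 1 and without WT replicate 2. Eomes, a T-box gene of mesendoderm, had 12.5 and 13.3 CPM in WT and 6.65 to 9.30 CPM in the mutants, a log2 fold change of -0.73 (-0.98 to -0.47, edgeR adjusted p = 4.66e-05). Foxa2, a forkhead gene of endoderm, was lower too, but with 11 and 15 counts in WT and 2, 0, 1 and 2 counts in the mutants. It passed the filter on low counts only through the WT libraries. Its place among the 5 lower targets thus follows in part from the filter. Ctgf, which answers to TGF-beta in many cells and is high in fibroblasts, was lower at -0.56 (edgeR adjusted p = 3.61e-08). Mixl1 and Pmepa1 did not pass, and Gsc was under the filter at 1 to 7 counts.

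**Figure D5:**
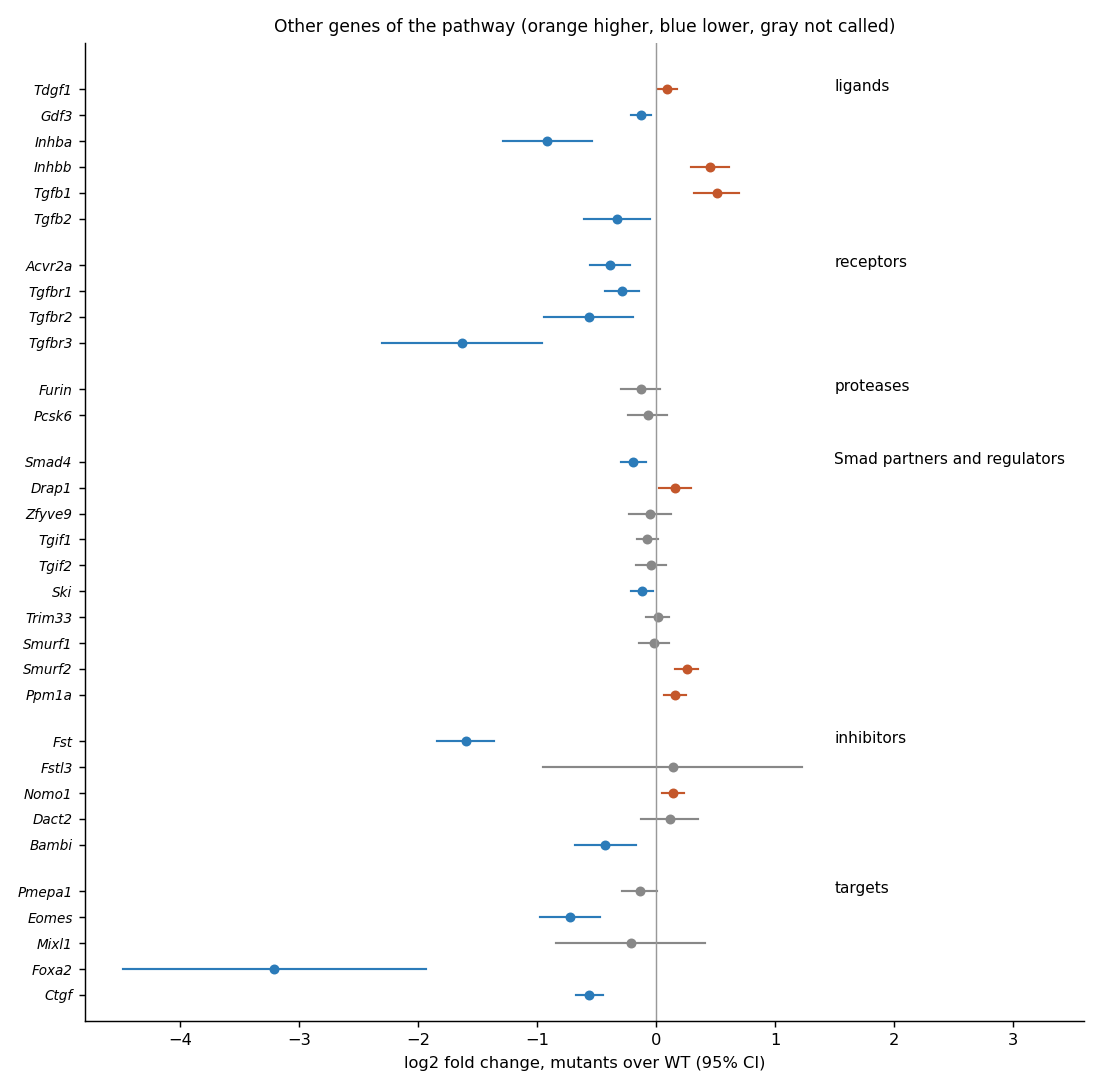
Log2 fold change of the mutants over WT (horizontal axis) for 32 of the 34 tested genes of the wider pathway, grouped by role, with 95% confidence intervals as lines. Orange genes were higher, blue lower and gray not called at an adjusted p of 0.05, so 7 orange and 14 blue genes are seen, and Foxa2, with 0 to 2 counts in the mutants, has the widest interval of the called genes.

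The genes whose levels ran most like those of a member over the 6 libraries were found by the distance between log2 CPM values, each centred on its own mean, among 8919 genes with a mean of at least 10 CPM. For Lefty2 these were Tex19.1 (distance 0.103, log2 fold change 1.59), Spn (0.135, 1.56) and Inpp5d (0.147, 1.51). For Lefty1 they were Dhrs7b (0.0547, 0.26), Ndufv2 (0.059, 0.22) and Arpc1b (0.0638, 0.28), and for Nodal Sfswap (0.0285, -0.11), AI846148 (0.0297, -0.13) and Rbbp4 (0.0347, -0.11). Lefty2 had no gene as near as those of Lefty1 and Nodal, which lie among the many genes that differ little between the libraries. The distances describe these 6 libraries and nothing of shared function.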

How the data were processed

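The mRNA-seq values deposited by the authors were raw read counts per gene for 6 libraries, from paired-end reads mapped to mm10 joined with the fly genome dm6, and the submitters' processing notes name STAR, SAMtools and DESeq2. The counting program, annotation and strand setting are not given in the sources used here. The ATAC-seq peak lists deposited by the authors were called in each library separately, with Bowtie2 2.3.4.2, deepTools 3.3.0 and MACS2 in the notes, and give the fold enrichment of each peak (a ratio over local background) and its −log10 p and q. The lowest −log10 q in the deposited lists was 6.00 to 6.11. The Tn5 shift and duplicate removal are not given in the sources used here. ChIP-seq samples of the series were not analysed here.

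Counts were tested as deposited with edgeR 4.0.16 in R 4.3.3 (TMM, filterByExpr with a minimum count of 10 and total of 15, quasi-likelihood F-test, Benjamini-Hochberg adjustment over all tested genes, confidence level 95%). WT (2 libraries) was compared with the mutants (4 libraries), and a fit with 3 groups gave each clone and the difference between clones. DESeq2 1.42.0 was an alternative. On simulated data 168 of 200 changed genes were recovered and 7 unchanged genes were called among 13853. The labels call the mRNA-seq libraries of a line biological replicates, and say no such thing of the ATAC-seq libraries. They do not say that any came from separate derivations, and each mutant line is 1 clone, so p-values measure the spread between these libraries. Counts set the precision of single values, and peak lists of unknown depth allow no interval.

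ATAC-seq regions were joined at 1 bp of overlap and taken within 20 kb of a gene, with the highest peak of each library, and a two-sided exact permutation test over 15 arrangements. Of the table's symbols, 15618 were placed on the mm10 annotation directly, 478 by an older symbol and 167 not at all. The genes and lists were chosen with earlier results of these data known. Named were all members, the pathway genes called beyond 1.5-fold, Tdgf1, Gdf3, Smad4, Acvr2a and Furin, the genes around Lefty2 and the nearest profiles. Regions were named at starts or where they separated the genotypes, and the highest region was named for some members only. Other pathway genes and regions were named after their values were seen. A few genes that enter the counts are not reported here. Alternatives were other scalings, no filter, DESeq2, a replicate block, other windows, thresholds and overlaps for peaks, and each library left out.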

Additional observations from a re-analysis of the deposited data

Results flagged for a closer look

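In 2 of the 72 sets of 4 mutant libraries tested, 1 library stood apart from the other mutant libraries, where chance gives about 1 in 20, or 5%. In the region 15135 bp upstream of Lefty1 (chr1:180919600-180919986), the gap of Mut18 replicate 1, at 0.591 against 0.684 to 0.697, took a share of 0.882 of the range of the mutant libraries. In the region at the starts of Cyhr1 and Kifc2 near Foxh1 (chr15:76659662-76660382), Mut18 replicate 1 had 0.852 against 0.772 to 0.781, a gap share of 0.891.

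Of the 55 members, pathway genes and genes around Lefty2 that were compared between the clones, 1 differed, beside 0.327% of all tested genes. Tgfb2, which codes for a TGF-beta ligand, was lower in Mut43 than in Mut18, with a log2 difference of -0.568 (edgeR adjusted p = 0.00447). It had 20.1 and 18.8 CPM in WT, 18.6 and 18.5 CPM in Mut18, and 13.0 and 11.9 CPM in Mut43. Of the fibroblast markers, Col1a1, which codes for a collagen chain, was also lower in Mut43 than in Mut18, by a log2 difference of -0.41 (edgeR adjusted p = 0.000132). The summed level of these markers was 169.8 and 166.6 CPM in Mut18 and 129.1 and 129.6 CPM in Mut43, and its part in the Tgfb2 values was not tested.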

How the results depend on the processing

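Of the values of single genes under the alternatives, 632 kept their direction and side of the threshold, 29 lost the call, 4 gained it and 4 changed sign, and 198 counts stayed within 1.5 times while 24 did not. Those that changed sign were small: with 1 library left out Acvr1b in Mut18 ran from -0.0086 to 0.208, Lin9 from -0.0607 to 0.0167 and Wdr26 from -0.0414 to 0.0154, and Wdr26 was 0.0041 with TMM computed without chromosomes 11 and X. The members called in the comparison of mutants with WT were called under all 13 alternatives, with Lefty2 between 1.53 and 1.61. In the single clones, Lefty1 in Mut43 lost its call without WT replicate 1, and Smad2 in Mut18 lost it under 6 alternatives.

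Around Lefty2, upper quartile scaling gave 3 higher genes, and no filter gave 2 lower. A 50 kb window gave 131 regions, 75 with a peak in all libraries, 5 in WT alone, 17 higher and 2 lower. A 10 kb window gave 0 lower, lists of equal length gave 1 region in WT alone, a −log10 q of at least 10 gave 1 in mutants alone, and percentiles gave 4 lower. Causes were not tested.

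With 1 library left out, members higher numbered 3 to 3 and lower 3 to 4. In Mut18 they were 2 to 3 and 3 to 3, in Mut43 2 to 3 and 2 to 3, and 0 to 0 differed between clones. Pathway genes higher were 4 to 6 and lower 11 to 16, and genes around Lefty2 3 to 5 and 1 to 1. Regions were 64 to 70, with peaks in all libraries 39 to 41, in WT alone 3 to 10, in mutants alone 0 to 2, higher 11 to 20 and lower 1 to 5.

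With the replicate number as a block, 3 members were higher and 3 lower, and in Mut18 3 and 3, in Mut43 3 and 2, with 0 between clones. The block gave 6 higher and 16 lower pathway genes, and 4 higher and 1 lower around Lefty2. Deviations of same-numbered libraries correlated at -0.12, 0.09 and -0.08 over 8920 genes. Whether same-numbered libraries shared a batch that affects some genes cannot be told from these values.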

Other observations

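Acvr1c, which codes for another type I receptor of the pathway, had 45 counts in WT replicate 1, 0 in WT replicate 2, 1 and 0 in Mut18, and 0 and 1 in Mut43, and was under the filter. The fibroblast markers Col3a1 (863 counts against 262 in WT replicate 2) and Postn (295 against 113) were highest in the same library.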
